A study of Mus musculus with 24 samples.

Results

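The 46 genes described here encode the machinery that copies DNA and supplies its building blocks. They were chosen by name for those roles, with earlier results of these data known. They are the rows of the 24 deposited tables whose gene symbol matched, and make up 46 of 24339 genes. All libraries were made from liver of C57BL/6 mice, with a kit that selects messenger RNA. They form 8 groups of 3: wild type at postnatal day 5 and day 60, given corn oil or TCPOBOP, and hCAR-TG at the same ages, given corn oil or CITCO. TCPOBOP is an agonist of the mouse constitutive androstane receptor (CAR), CITCO is an agonist of human CAR, and hCAR-TG mice carry human CAR, so receptor and ligand always changed together. The labels name no dose, no construct or promoter for the human gene, and not whether mouse CAR was kept. Whether replicates are separate animals is not stated in them, so p-values measure only the spread between these samples. Below, day 5 livers are called newborn and day 60 livers adult.

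Replication origins are licensed when ORC, CDC6 and CDT1 load the MCM2-7 helicase onto DNA, and geminin blocks reloading. CDC45 and GINS then switch the helicase on, PCNA and its loader RFC hold the polymerases on the template, and ribonucleotide reductase makes deoxynucleotides. Many of these genes are transcribed as a cell enters S phase, when E2F factors act at their promoters. The liver grows by cell division after birth and is largely quiescent in the adult, and TCPOBOP is a known stimulus of hepatocyte division in mice.

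The tables give FPKM, which is scaled for transcript length, so levels can be compared between genes. FPKM totals were 451546 to 502499 per library, and read totals were not used here. The half-width of the deposited interval around a gene's FPKM had a median over the members of 9.62% of the value in newborn and 19.4% in adult wild type corn oil libraries, so the low adult values are less precise. Of 12 hepatocyte markers 11 were found, and all 11 reached 1 FPKM in every group. A gene was tested with limma on log2(FPKM + 1) if it reached 1 FPKM in at least 3 of the 24 libraries, and it was called changed at an adjusted p (Benjamini-Hochberg, over 12282 genes) under 0.05. Of the 46 members 45 were tested. Orc1, the largest subunit of the origin recognition complex, was not, with a highest value of 1.16 FPKM. Of the tested members, 4 reached 1 FPKM in fewer than 3 of the 12 adult libraries, so they passed through their newborn level. Another limit is that 15 tested members were under 1 FPKM in all 6 adult corn oil libraries, and adding 1 understates the log2 changes of such genes. In bulk tissue, fewer cells of a type and less RNA per cell cannot be told apart.

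The promoters of 5 members are shown because these genes carry the main pattern and its exception. Mcm5, Mcm6 and Uhrf1 were far lower in adult than in newborn corn oil livers and rose with TCPOBOP. Rrm2 rose most, and Mcm10 fell. The 5 were picked with these values and the matches below known. RefSeq promoters of GRCm38.p6, which hold 300 bases from 250 before the start of transcription to 50 after it, were matched by symbol for 37 of the 46 genes. The 250 bases before the start are printed 5′ to 3′ on the gene's strand. Capitals mark 4 spellings of the E2F site (TTTCCCGC, TTTCGCGC, TTTGCCGC and TTTGGCGC) and the CCAAT box (CCAAT), each searched on both strands, with overlapping matches run together.
Mcm5, chr8:75109259-75109508, plus strand: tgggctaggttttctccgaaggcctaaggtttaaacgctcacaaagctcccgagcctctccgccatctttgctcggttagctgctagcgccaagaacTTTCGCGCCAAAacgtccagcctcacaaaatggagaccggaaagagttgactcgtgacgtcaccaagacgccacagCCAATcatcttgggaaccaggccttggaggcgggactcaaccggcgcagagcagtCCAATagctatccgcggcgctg
Mcm6, chr1:128359706-128359955, minus strand: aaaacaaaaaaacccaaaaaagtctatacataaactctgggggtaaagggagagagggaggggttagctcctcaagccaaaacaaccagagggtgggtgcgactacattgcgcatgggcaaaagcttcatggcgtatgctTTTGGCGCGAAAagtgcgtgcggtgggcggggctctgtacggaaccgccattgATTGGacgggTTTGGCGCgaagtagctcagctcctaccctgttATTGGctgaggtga
Uhrf1, chr17:56304063-56304312, plus strand: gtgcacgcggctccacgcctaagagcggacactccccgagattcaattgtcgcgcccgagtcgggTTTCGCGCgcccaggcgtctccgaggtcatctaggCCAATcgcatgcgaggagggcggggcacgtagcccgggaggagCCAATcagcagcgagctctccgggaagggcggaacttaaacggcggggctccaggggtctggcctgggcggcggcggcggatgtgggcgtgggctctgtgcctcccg
Rrm2, chr12:24708004-24708253, plus strand: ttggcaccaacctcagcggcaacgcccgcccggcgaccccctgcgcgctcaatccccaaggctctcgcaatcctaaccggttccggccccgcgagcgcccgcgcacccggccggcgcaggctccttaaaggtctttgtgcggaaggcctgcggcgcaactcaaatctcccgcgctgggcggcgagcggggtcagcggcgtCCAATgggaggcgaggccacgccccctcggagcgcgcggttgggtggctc
Mcm10, chr2:5012792-5013041, minus strand: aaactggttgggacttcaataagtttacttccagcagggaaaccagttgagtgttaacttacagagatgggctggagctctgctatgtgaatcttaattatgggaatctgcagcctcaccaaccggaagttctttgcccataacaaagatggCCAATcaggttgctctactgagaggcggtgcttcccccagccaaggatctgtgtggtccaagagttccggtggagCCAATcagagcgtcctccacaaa
The Mcm5 promoter held 2 overlapping E2F spellings, beginning 153 and 149 bases before the start. The Mcm6 promoter held 3, of which those at 110 and 106 bases overlap and the last begins at 47 bases. Uhrf1 has 2 promoters in the table, and the one printed is the one with a match, 185 bases before the start. Rrm2 and Mcm10 held none of the 4 spellings in their 300 bases, which says only that these letters are not in this window. Rrm2 held 1 CCAAT box and the other promoters shown held 2 each.

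E2F spellings were found in the promoters of 17 of the 37 matched members (45.9%), against 704 of 27025 genes in the table (2.61%). The members' promoters were richer in G and C, with a median of 60.0% against 52.7% for all promoters. Among genes with a promoter of at least 60% GC, a limit set after the values were seen, 9 of 21 members (42.9%) and 397 of 8543 genes (4.65%) held a spelling. A CCAAT box was present in 62.2% of the matched members and 41.1% of all genes. The CHR element of mitotic genes (TTTGAA or TTCGAA) was present in 18.9% of the matched members and 21.7% of all genes. These shares describe letters, not occupied sites.

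Newborn livers held far more of these transcripts than adult livers. Summed over the 46 genes, the newborn wild type corn oil libraries held 355, 402 and 443 FPKM, and the adult ones 117, 113 and 113 FPKM. For 43 members, each of the 12 newborn libraries, whatever the treatment, was above each of the 9 adult libraries that had not received TCPOBOP. The share of all genes with that separation was not worked out. Adult wild type corn oil livers were lower than newborn ones for 43 of the 45 tested members and higher for 1, with a median log2 difference of -1.46. The 43 include the 4 that passed the filter through their newborn level (Cdc6, Gins3, Pole2 and Clspn), which that selection favoured. Among all tested genes 44.9% were called lower and 25.2% higher in that comparison, with a median of -0.14. In hCAR-TG livers 44 members, again with those 4, were lower and 1 higher, with a median of -1.59. Among all genes 47.3% were lower and 24.3% higher there. By role, the median in wild type livers ran from -2.45 for the MCM2-7 helicase to -0.79 for the helicase activators.

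The summed level of each marker list, hepatocyte markers included, was lower in adult than in newborn wild type corn oil livers, with ranges apart. Of the single markers, 13 of 14 tested erythroid markers were called lower, their summed level being 3124 to 4218 FPKM in newborn and 964 to 1311 FPKM in adult libraries, where Gata1 and Rhag were at 0. All 11 neutrophil markers were lower (352 to 906 against 12.8 to 29.04 FPKM, Ctsg at 0 in the adult), as were 11 of 12 Kupffer cell markers (749 to 770.5 against 350.5 to 389 FPKM). Progenitor and megakaryocyte (27.5 to 31.7 against 4.41 to 5.66 FPKM), lymphocyte (23.2 to 28.9 against 3.66 to 5.14 FPKM) and stellate cell markers (299 to 319 against 103 to 117 FPKM) were called lower for every tested gene, Ms4a2 and Igll1 being at 0 in the adult. Hepatocyte markers were at 126346 to 137626 and 58126 to 69446 FPKM, with 5 of 11 called lower and 3 higher. Their part in the members' difference was not tested.

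TCPOBOP raised nearly the whole set in adult liver. The 3 adult wild type TCPOBOP libraries held 367, 359 and 289.5 FPKM summed over the 46 genes. Of the 45 tested members 44 rose and 1 fell, with a median log2 change of 1.09, while 31.4% of all tested genes were called higher and 15.8% lower, with a median of 0.06. For 44 of the 46 genes the 3 TCPOBOP libraries were all above the 3 corn oil libraries, and for 1 they were all below, a separation not counted over all genes. At Pola2, the other one, the groups overlapped. Replicate 3 was the lowest of the TCPOBOP libraries for 45 of the 46. That library also carries another number at the end of its read file name in the labels. With that number as a factor the comparison rests on TCPOBOP replicates 1 and 2, and the counts were again 44 and 1. Hepatocyte markers moved the other way, with 9 of 11 called lower and a summed level of 34873 to 38195 FPKM, against 58126 to 69446 FPKM with corn oil. Marker sums that were higher with TCPOBOP, with ranges apart, were those of neutrophils, at 50.1 to 59.2 against 12.8 to 29.04 FPKM (2 of 11 called higher, Camp and Ctsg at 0 with TCPOBOP), and of cholangiocytes, at 37.97 to 59.7 against 20.3 to 27.9 FPKM (2 of 6 tested called higher). Erythroid markers were at 516 to 871 against 964 to 1311 FPKM (5 of 14 called lower and 1 higher, Rhag at 0 in both groups), and Kupffer, endothelial, stellate, acinar and intestinal sums were also lower with ranges apart. The part of these shifts in the members' rise was not tested.

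**Figure D1:**
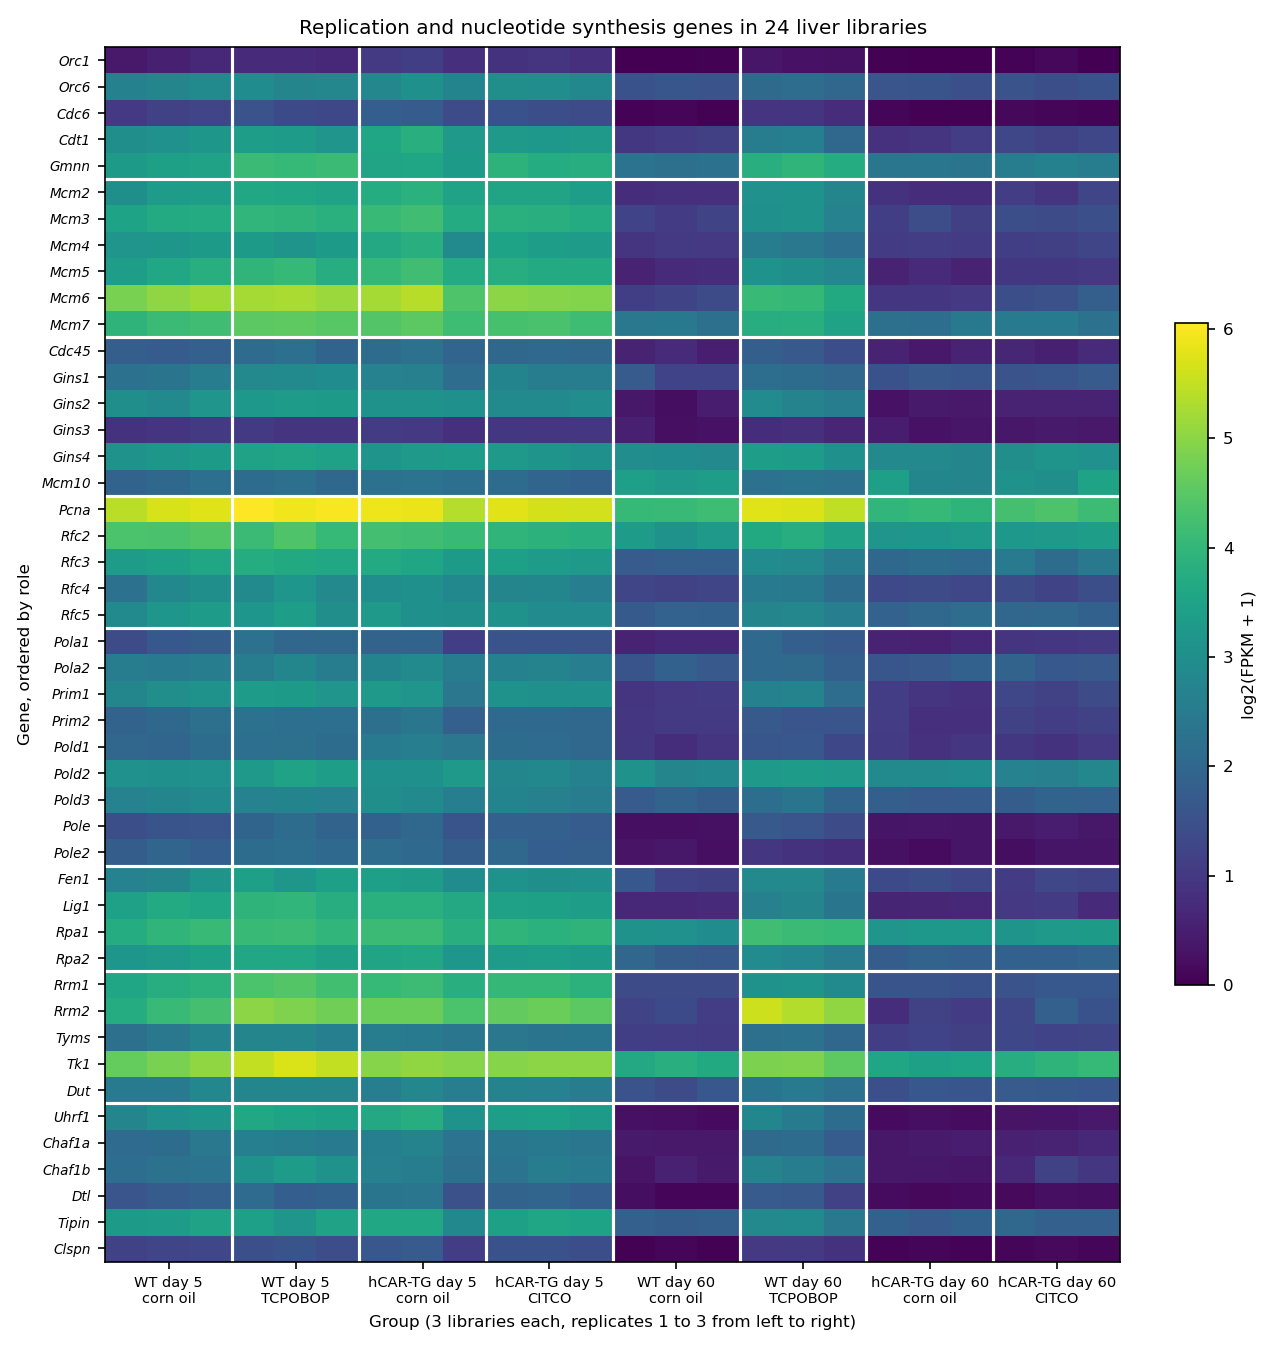
Level of each of the 46 genes (rows, ordered by role) in each of the 24 libraries (columns, 3 per group), as log2(FPKM + 1) in colour. The adult corn oil and CITCO columns are darkest for most genes, the adult TCPOBOP columns are lighter, and the Mcm10 row runs the other way.

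**Figure D2:**
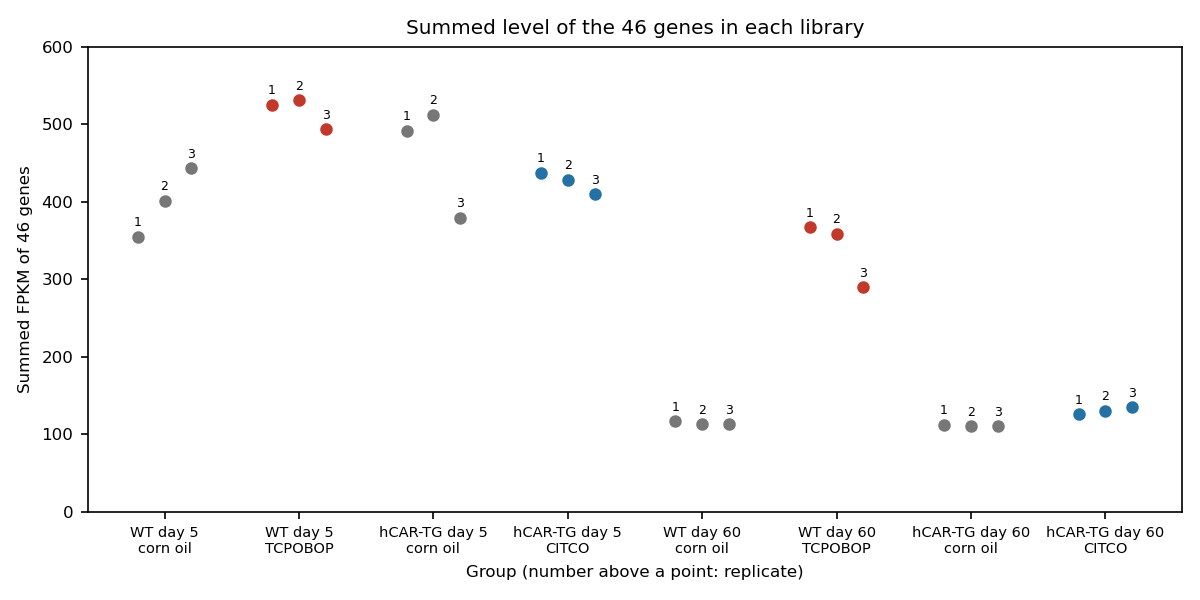
Summed FPKM of the 46 genes in each library, by group, with the replicate number above each point. The adult corn oil libraries sit at 111 to 117 FPKM, the adult CITCO libraries at 126 to 135 FPKM, the adult TCPOBOP libraries at 290 to 367 FPKM and the newborn libraries at 355 to 532 FPKM.

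The licensing genes rose from low adult levels. Cdc6, which helps load the helicase, was at 1.002, 1.29 and 1.42 FPKM in newborn corn oil livers and at 0.0425, 0.0612 and 0.0330 FPKM in adult ones. With TCPOBOP the adult libraries held 0.884, 0.923 and 0.716 FPKM, below the newborn range and clear of the adult corn oil range, a log2 change of 0.81 ± 0.09 (limma, adjusted p = 2.16e-07). Cdt1, its partner in loading, went from 0.967, 1.11 and 1.22 FPKM to 4.88, 5.08 and 3.07 FPKM with TCPOBOP (1.33 ± 0.13, adjusted p = 2.57e-08), against 7.02, 7.29 and 8.26 FPKM in newborn livers. Its inhibitor geminin (Gmnn) rose as well, from 3.96, 3.69 and 3.86 FPKM to 12.8, 14.5 and 12.4 FPKM (1.55 ± 0.07, adjusted p = 3.69e-13). All 3 treated adult livers were above the newborn corn oil values of 8.84, 9.90 and 10.1 FPKM. Among the 4 tested genes of this role Orc6, the smallest ORC subunit, changed least, by 0.52 ± 0.08. Orc1 was listed at 0, 0 and 0.0169 FPKM in adult corn oil livers and at 0.287, 0.237 and 0.211 FPKM with TCPOBOP. With no filter on low values, limma gave Orc1 a log2 change of 0.31 ± 0.06 (adjusted p = 0.000572).

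All 6 subunits of the MCM2-7 helicase rose with TCPOBOP in adult liver, by 1.32 to 2.68 on the log2 scale. Mcm6 stood at 27.5, 31.8 and 35.4 FPKM in newborn corn oil libraries, at 1.16, 1.38 and 1.67 FPKM in adult ones and at 16.2, 15.5 and 11.9 FPKM in adult TCPOBOP libraries. These 3 ranges did not overlap, and the change with TCPOBOP was 2.68 ± 0.18 (limma, adjusted p = 1.36e-10). Mcm5 went from 0.518, 0.661 and 0.726 FPKM to 7.50, 7.04 and 5.95 FPKM (2.26 ± 0.11, adjusted p = 4.82e-13). Mcm2 went from 0.728, 0.782 and 0.749 FPKM to 7.33, 7.50 and 5.70 FPKM (2.15 ± 0.11, adjusted p = 8.19e-13). Mcm7 changed least, from the highest adult corn oil level of the 6 (3.70 to 4.48 FPKM). The complex holds the subunits in equal number, yet their transcripts differed in level. The mean of the highest was 3.81 times that of the lowest in newborn corn oil livers (Mcm6 over Mcm4), 6.57 times in adult corn oil livers (Mcm7 over Mcm5) and 3.39 times in adult TCPOBOP livers (Mcm6 over Mcm4). Mcm7 exons overlap those of Ap4m1 on the opposite strand by up to 247 bases, and the counting is not stated to use strand.

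Among the genes that activate the helicase, Gins2 and Mcm10 went in opposite directions. Gins2, a subunit of the GINS complex, was at 0.302, 0.169 and 0.381 FPKM in adult corn oil livers and at 6.51, 5.53 and 4.93 FPKM with TCPOBOP, a log2 change of 2.37 ± 0.08 (limma, adjusted p = 2.01e-15). Newborn corn oil livers held 7.03, 6.45 and 7.85 FPKM, and the highest treated adult library reached into that range. Its partners changed less: Gins1 rose by 0.72 ± 0.13, Gins3 by 0.40 ± 0.08 and Gins4 by 0.33 ± 0.08. Adult corn oil livers kept 80.1% of the newborn mean level of Gins4 and 3.99% of that of Gins2. Gins2 exons overlap those of Gse1 on the opposite strand by up to 2758 bases. Cdc45, which completes the active helicase, went from 0.522, 0.640 and 0.419 FPKM to 2.55, 2.21 and 1.76 FPKM (1.05 ± 0.09, adjusted p = 6.86e-09).

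Mcm10, whose product helps start the fork, was the exception in the set. Its level was 2.77, 3.03 and 3.64 FPKM in newborn corn oil livers and 9.65, 8.47 and 9.35 FPKM in adult ones, a log2 difference of 1.30 ± 0.14 (limma, adjusted p = 5.46e-08). With TCPOBOP the adult libraries held 3.81, 4.01 and 3.86 FPKM, a change of -1.05 ± 0.14 (adjusted p = 2.48e-06) to just above the newborn values. In hCAR-TG mice the adult corn oil libraries held 9.64, 5.88 and 5.70 FPKM and the CITCO libraries 7.69, 7.14 and 10.5 FPKM, so those groups overlap. The age difference in hCAR-TG livers was 0.72 ± 0.14 (adjusted p = 0.000112). All 12 newborn libraries were below all 9 adult libraries without TCPOBOP. In the GENCODE annotation of GRCm38, no Mcm10 exon overlaps an exon of another gene.

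**Figure D3:**
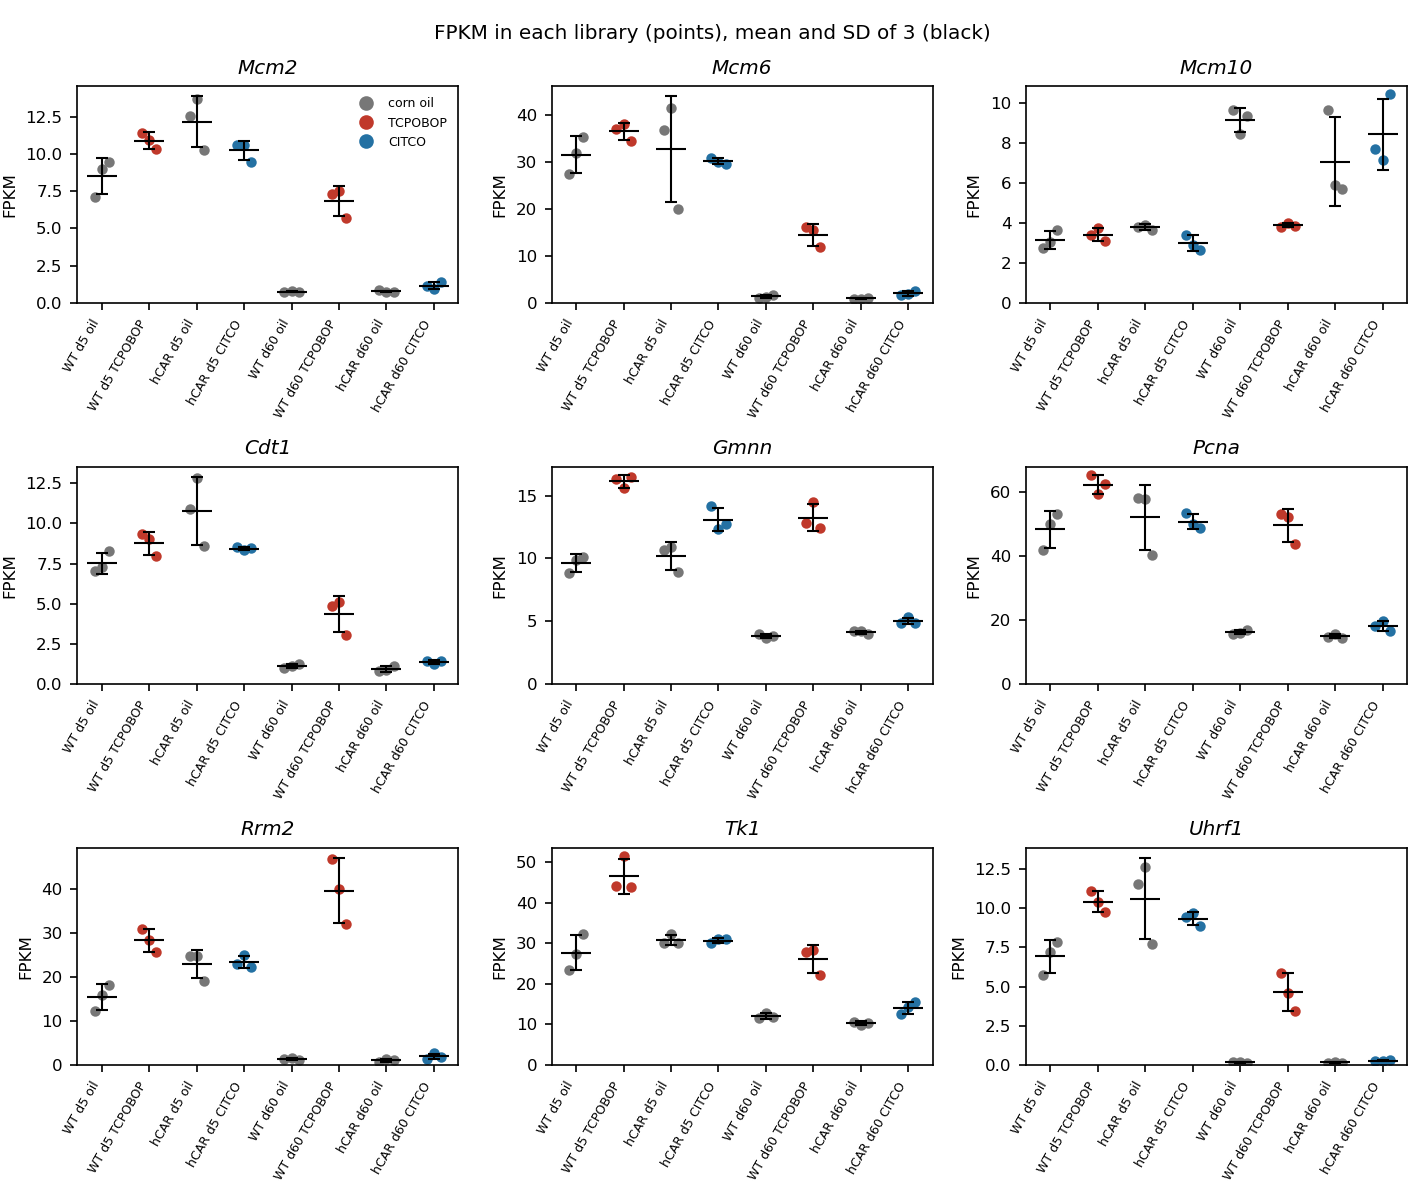
FPKM of 9 members in each library (points, coloured by treatment), with the mean and SD of 3 in black, for the 8 groups on the horizontal axis. Of the 9, Rrm2 is the only gene whose adult TCPOBOP libraries, at 32.1 to 46.9 FPKM, exceed all 12 newborn libraries, and Mcm10 is the only gene highest in adult corn oil and CITCO libraries.

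Pcna, the sliding clamp, had the highest mean level of all members in every corn oil group. It went from 15.7, 16.05 and 16.97 FPKM in adult corn oil livers to 53.1, 52.2 and 43.7 FPKM with TCPOBOP (1.55 ± 0.11, limma adjusted p = 2.70e-10), which overlaps the newborn corn oil values of 41.96, 50.1 and 53.1 FPKM. The subunits of its loader rose by less, from 0.43 ± 0.09 for Rfc2 to 1.12 ± 0.14 for Rfc4. Rfc2 and Rfc5 exons overlap genes on the opposite strand by up to 952 and 499 bases.

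All 9 polymerase and primase genes rose in adult TCPOBOP livers, from 0.29 to 1.51 on the log2 scale. Pole, the catalytic subunit of polymerase epsilon, went from 0.187, 0.181 and 0.211 FPKM to 2.24, 2.03 and 1.65 FPKM (1.31 ± 0.09, limma adjusted p = 1.67e-10), which overlaps the newborn corn oil values of 1.75 to 2.01 FPKM. Prim1, the catalytic subunit of primase, changed most, by 1.51 ± 0.16, and Pola1, the catalytic subunit of polymerase alpha, by 1.22 ± 0.15. Of the catalytic subunits Pold1, of polymerase delta, changed least (0.63 ± 0.08). The smallest changes were those of the accessory subunits Pola2 (0.29 ± 0.10, adjusted p = 0.0262), Pold3 (0.34 ± 0.10, adjusted p = 0.00699) and Pold2 (0.39 ± 0.08, adjusted p = 0.000439). Pola2 lost its call without corn oil replicate 1 or 3 or TCPOBOP replicate 1 or 2, and after rescaling the libraries by their median ratio (highest adjusted p 0.124). Pold3 lost it without TCPOBOP replicate 2 (0.0609).

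Pold2 was also the member whose level with age differed least, at 7.35, 7.22 and 7.34 FPKM in newborn and 7.68, 5.75 and 6.13 FPKM in adult wild type corn oil livers (-0.15 ± 0.08, limma adjusted p = 0.104). Without adult corn oil replicate 1 it was called lower. In hCAR-TG livers its age difference was -0.21 ± 0.08 (adjusted p = 0.0281), which became 0.04 (adjusted p = 0.706) after rescaling. That call was also lost with the compared libraries alone, and without newborn corn oil replicate 3 or adult corn oil replicate 1 or 2.

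At the lagging strand, Lig1, the ligase that joins Okazaki fragments, was at 0.588, 0.590 and 0.647 FPKM in adult corn oil livers and at 5.25, 5.69 and 4.12 FPKM with TCPOBOP (1.89 ± 0.09, limma adjusted p = 7.45e-13). Newborn corn oil livers held 10.03, 12.1 and 10.9 FPKM, above every adult library. Fen1, the flap nuclease, rose by 1.39 ± 0.14. Of the single-strand binding subunits, Rpa1 rose by 1.09 ± 0.09 and Rpa2 by 0.94 ± 0.11. Fen1 and Lig1 exons overlap genes on the opposite strand by up to 1909 and 247 bases.

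Nucleotide synthesis held the largest change. Rrm2, the small subunit of ribonucleotide reductase that is made for S phase, was at 1.37, 1.55 and 1.13 FPKM in adult corn oil livers and at 46.9, 40.2 and 32.1 FPKM with TCPOBOP. The log2 change was 4.10 ± 0.16 (limma, adjusted p = 2.21e-14), and the ratio of mean FPKM was 29.5. Newborn corn oil livers held 12.4, 16.03 and 18.3 FPKM, so the treated adult mean was 255% of the newborn one. The large subunit, Rrm1, went from 1.64, 1.66 and 1.65 FPKM to 7.65, 7.81 and 6.49 FPKM (1.65 ± 0.09, adjusted p = 4.03e-12), 59.1% of its newborn mean. Tk1, thymidine kinase of the salvage route, was at 11.6, 12.9 and 11.8 FPKM in adult corn oil livers and rose to 27.9, 28.4 and 22.2 FPKM (1.04 ± 0.10, adjusted p = 2.48e-08). Tyms, which makes thymidylate, rose by 1.08 ± 0.09 and Dut, which removes dUTP, by 0.83 ± 0.09.

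All 6 genes that copy chromatin and protect the fork rose. Uhrf1, which carries DNA methylation through replication, was at 0.212, 0.187 and 0.135 FPKM in adult corn oil livers, 2.57% of its newborn mean, and at 5.89, 4.59 and 3.44 FPKM with TCPOBOP (2.24 ± 0.14, limma adjusted p = 3.59e-11). The highest treated library overlapped the newborn corn oil values of 5.76, 7.20 and 7.81 FPKM. Chaf1a and Chaf1b, of chromatin assembly factor 1, rose by 1.57 ± 0.10 and 2.08 ± 0.12. Chaf1b went from 0.257, 0.474 and 0.356 FPKM to 5.53, 4.96 and 3.93 FPKM, a mean of 126% of the newborn one. Dtl, which directs destruction of CDT1, rose by 1.38 ± 0.17, and the checkpoint mediator Clspn by 0.92 ± 0.10. Tipin, of the fork protection complex, changed least in this role (0.90 ± 0.16). Chaf1a exons overlap those of Ubxn6 on the opposite strand by up to 2542 bases.

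Treated adult livers were then set against untreated newborn livers. Over the 45 tested members, adult corn oil livers held a median of 25.1% of the newborn mean FPKM (range 2.57% to 291%), and adult TCPOBOP livers a median of 73.8% (range 31.9% to 255%). With TCPOBOP 10 members were above 100% and 32 were between 50% and 100%. By limma 3 members were higher than in newborn corn oil livers and 30 lower, where 30.6% of all genes were called higher and 38.6% lower. The 3 were Rrm2 (1.30 ± 0.16, adjusted p = 3.63e-07), Gmnn (0.42 ± 0.07, adjusted p = 3.50e-05) and Pold2 (0.24 ± 0.08, adjusted p = 0.0128), of which Pold2 lost its call with the read file number as a factor. Mcm6 (-1.07 ± 0.18), Lig1 (-1.002 ± 0.09) and Pole2, an accessory subunit of polymerase epsilon (-0.98 ± 0.09), remained farthest below the newborn level. Pole2, like Cdc6, Gins3 and Clspn, passed the filter through its newborn level, and that selection favours lower values in this comparison. After rescaling by the median ratio the counts were 8 higher and 21 lower. Rescaling moved the median of all genes from -0.14 to 0.06 in the age comparison of wild type corn oil livers, and the members' median from -1.46 to -1.28.

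**Figure D4:**
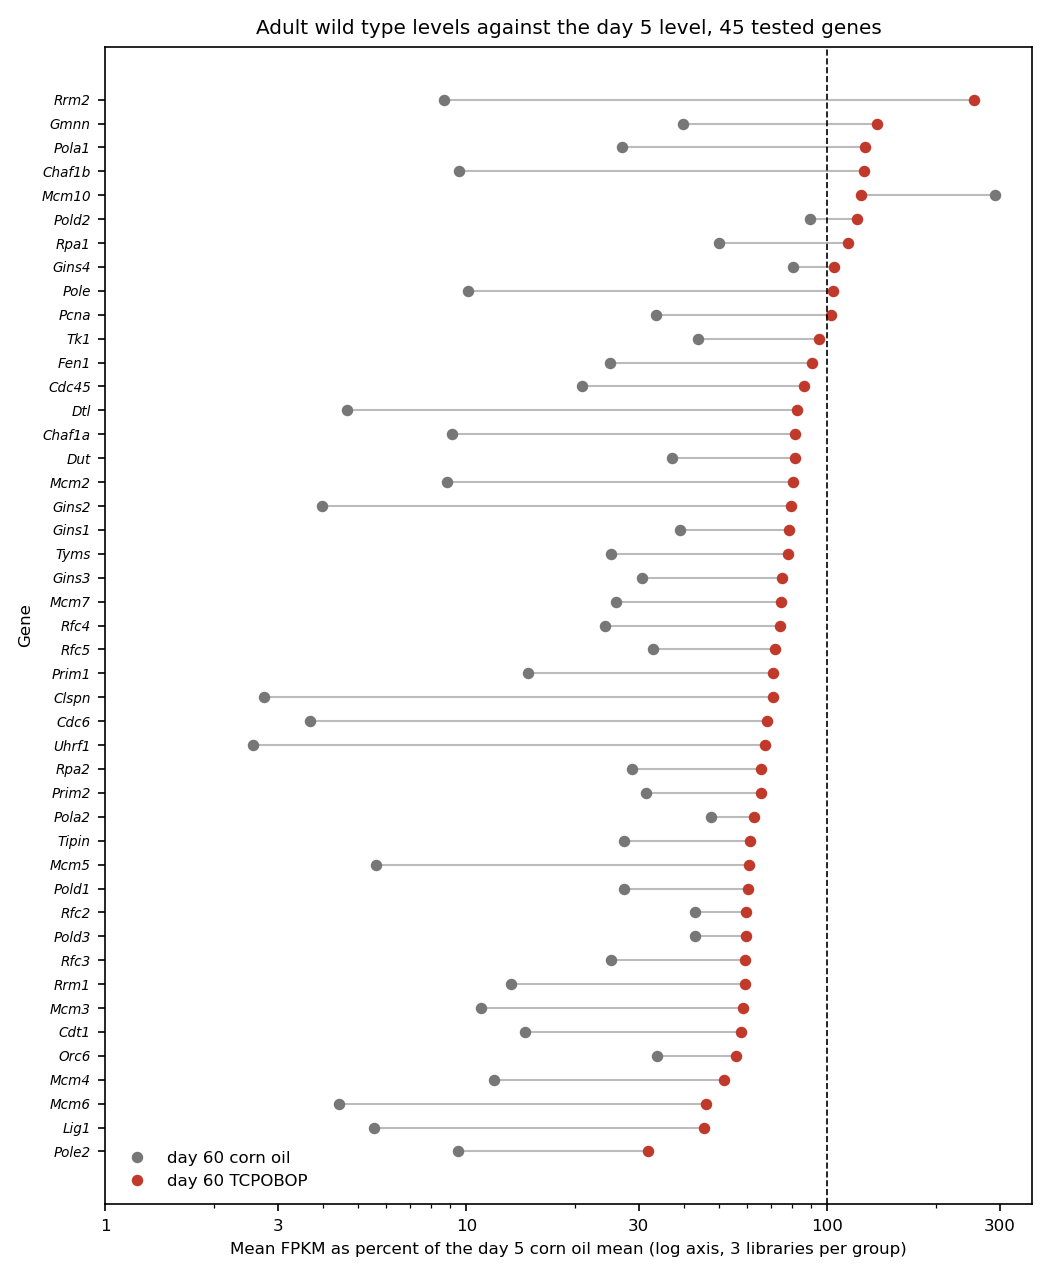
Mean FPKM of 45 tested members in adult wild type livers as a percent of the newborn corn oil mean, on a log axis, with corn oil joined to TCPOBOP. Rrm2 reaches 255% with TCPOBOP, and Mcm10 is the only member whose TCPOBOP point lies left of its corn oil point.

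In newborn livers TCPOBOP produced a smaller rise. The treated libraries held 526, 532 and 494 FPKM summed over the 46 genes, against 355, 402 and 443 FPKM with corn oil. Of the 45 tested members 23 rose and 0 fell (27 and 0 at an unadjusted p under 0.05), with a median log2 change of 0.27, beside 24.6% of all genes called higher and 11.3% lower. The count depended on single libraries: it was 12 without corn oil replicate 1, which was the lowest of its group for 39 of 46 members, and 15 without TCPOBOP replicate 1 or replicate 2. In every alternative that tested them, 11 of the 23 kept the call: Gmnn, Mcm7, Gins1, Gins4, Pold2, Pole, Rrm1, Rrm2, Tk1, Uhrf1 and Chaf1b. The largest rise was that of Chaf1b, from 3.57, 3.89 and 3.95 FPKM to 7.61, 8.95 and 7.54 FPKM (0.91 ± 0.12, limma adjusted p = 4.83e-06). Rrm2 went from 12.4, 16.03 and 18.3 FPKM to 31.02, 28.5 and 25.7 FPKM (0.84 ± 0.16, adjusted p = 0.000284). In both the ranges were apart. 

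Markers of other cells moved in the same newborn TCPOBOP libraries. Kupffer cell markers were at 863 to 1046 against 749 to 770.5 FPKM (4 of 12 tested higher). Lymphocyte markers were at 32.2 to 40.5 against 23.2 to 28.9 FPKM (3 of 8 tested higher, 1 lower). Intestinal markers were at 109.6 to 140.1 against 66.7 to 82.7 FPKM (2 of 6 tested higher, Defa24 at 0 with TCPOBOP). Stellate cell markers were at 201 to 266 against 299 to 319 FPKM (5 of 10 tested lower). Hepatocyte markers were at 97293 to 103745 against 126346 to 137626 FPKM (4 of 11 tested lower, 3 higher). In these 5 lists the ranges were apart. Erythroid markers overlapped, at 3644 to 4519 against 3124 to 4218 FPKM, with 6 of 14 tested higher. Their part in the result was not tested.

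Of the 5 nucleotide synthesis genes 4 rose in newborn livers, with Tk1 at 0.73 ± 0.10, Rrm1 at 0.59 ± 0.09 and Tyms, which lost its call in 8 of 12 alternatives, at 0.25 ± 0.09. Gmnn went from 8.84, 9.90 and 10.1 FPKM to 16.3, 15.6 and 16.5 FPKM (0.69 ± 0.07, limma adjusted p = 2.38e-07), whereas Cdt1, which it inhibits, did not pass the test (0.20 ± 0.13, adjusted p = 0.254). Of the MCM2-7 subunits Mcm2, Mcm5 and Mcm7 rose, while Mcm6 had a change of 0.21 ± 0.18 and Mcm4 of 0.03 ± 0.15. Rfc2 had the lowest value of the set (-0.17 ± 0.09, adjusted p = 0.145). All 23 members called higher in newborn livers were also called higher in adult livers, but 44 of the 45 tested members were, so the overlap carries little information. Across the 45 members the newborn and adult changes, which share no library, had a Pearson r of 0.56 and a Spearman rho of 0.57, given as a description.

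The difference between the TCPOBOP responses of the 2 ages was tested directly. The adult response was higher for 38 members and lower for 1, with a median difference of 0.84, where 13.7% of all genes were called higher and 9.76% lower. Rrm2 (3.26 ± 0.22, limma adjusted p = 1.13e-09), Mcm6 (2.47 ± 0.25) and Gins2 (2.11 ± 0.11) differed most, and the 1 member in the other direction was Mcm10 (-1.15 ± 0.20). Tk1 was among the 6 tested members with no called difference (0.31 ± 0.14, adjusted p = 0.128), though it was called without newborn corn oil replicate 1 or adult TCPOBOP replicate 3. The others were Gins1, Gins4, Pola2, Pold2 and Pole2.

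CITCO in adult hCAR-TG livers moved few members. The summed level was 112, 111 and 111 FPKM with corn oil and 126, 131 and 135 FPKM with CITCO. Of the 45 tested members 4 rose and 0 fell (15 and 1 at an unadjusted p under 0.05), with a median log2 change of 0.10, beside 4.4% of all genes called higher and 3.97% lower. Chaf1b went from 0.302, 0.303 and 0.296 FPKM to 0.624, 1.29 and 0.947 FPKM (0.57 ± 0.12, limma adjusted p = 0.00431). Tk1 went from 10.7, 9.86 and 10.4 FPKM to 12.6, 14.4 and 15.5 FPKM (0.42 ± 0.10, adjusted p = 0.0113). For Mcm6 the levels were 0.938, 0.955 and 0.998 FPKM and 1.72, 1.85 and 2.55 FPKM (0.62 ± 0.18, adjusted p = 0.035), and for Rrm2 0.719, 1.27 and 1.12 FPKM and 1.45, 2.63 and 1.88 FPKM (0.54 ± 0.16, adjusted p = 0.0362). In each of the 4 the ranges were apart. The calls did not hold in every alternative: Mcm6 lost its call in 7 of 13 alternatives, Rrm2 in 7 of 13, Tk1 in 3 of 13 and Chaf1b in 1 of 12. Apart from the read file number, the count ranged from 2 with no filter to 12 with a pseudocount of 0.1. It was also 2 without corn oil replicate 2 or 3 or CITCO replicate 3. With the read file number as a factor, the fit rests on CITCO replicate 1 alone, and the members' median was 0.14. Mcm5 (0.34 ± 0.11, adjusted p = 0.0586) and Gmnn (0.23 ± 0.07, adjusted p = 0.0595) did not pass. Stellate cell markers were at 83.8 to 104 against 106 to 163 FPKM with corn oil (4 of 10 called lower), hepatocyte markers at 56099 to 62282 against 63154 to 71837 FPKM (3 of 11 lower and 1 higher), endothelial markers at 109 to 117 against 98.00 to 108 FPKM (1 of 10 higher) and intestinal markers at 21.3 to 27.6 against 34.7 to 42.5 FPKM (none called, Lypd8 and Defa24 at 0 in both groups), in each with ranges apart. Their part in the result was not tested.

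In newborn hCAR-TG livers, 1 member was higher with CITCO and 4 were lower, with a median of -0.11, beside 8.27% of all genes called higher and 8.82% lower. Gmnn went from 10.7, 10.9 and 8.89 FPKM to 14.2, 12.4 and 12.7 FPKM (0.34 ± 0.07, limma adjusted p = 0.00359). Pold1 went from 4.63, 5.03 and 4.28 FPKM to 3.37, 3.33 and 3.06 FPKM, with no overlap (-0.41 ± 0.08, adjusted p = 0.0019). The other lower genes were Lig1 (-0.36 ± 0.09), Pold2 (-0.35 ± 0.08) and Rfc2 (-0.29 ± 0.09). Corn oil replicate 3 stood apart in this comparison: the corn oil libraries held 492, 512 and 379.8 FPKM summed, against 438, 429 and 410.0 FPKM with CITCO, and replicate 3 was the lowest of its group for 43 of 46 members. Its read file number was 5, as in the CITCO libraries, and that of the other corn oil libraries was 4. Without it 14 members were lower, and without CITCO replicate 3 there were 2. With the read file number as a factor, the CITCO libraries are set against corn oil replicate 3 alone, and the members' median became 0.09. With the compared libraries fitted alone 0 were higher and 2 lower.

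Markers of other cells moved with CITCO in the newborn as well. Neutrophil markers stood at 1269.6 to 1600.3 FPKM summed with corn oil and 738 to 1288 FPKM with CITCO (4 of 11 called lower), endothelial markers at 181 to 196 and 141 to 151 FPKM (6 of 10 lower) and intestinal markers at 90.99 to 193 and 63.1 to 73.2 FPKM (4 of 6 tested lower). Erythroid markers were at 7577 to 9469 FPKM with corn oil and 5503 to 6309.8 FPKM with CITCO (1 of 14 called lower and 1 higher), and hepatocyte markers at 115687 to 129718 and 105622 to 110155 FPKM (2 of 11 lower and 1 higher). The neutrophil ranges overlapped and those of the other 4 lists were apart. None of these markers was at 0 in all 3 libraries of either group. Their part in the result was not tested.

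The CITCO response was higher in adult than in newborn livers for 8 members and lower for 0 (18 and 0 at an unadjusted p under 0.05), with a median difference of 0.24, beside 5.37% and 4.62% of all genes. Of the called members Lig1 differed most (0.64 ± 0.13, limma adjusted p = 0.00452), and was the only one of the 8 to keep the call in every alternative. The others were Cdt1, Mcm2, Mcm5, Gins2, Rfc3, Pold1 and Chaf1b (0.37 to 0.61). The count was 19 without newborn corn oil replicate 3, and between 2 and 5 without any 1 of the other 11 libraries. With the read file number as a factor, the CITCO difference between ages rests on newborn corn oil replicate 3 and adult CITCO replicate 1. The members' median difference was then 0.01, against 0.24 without that factor.

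**Figure D5:**
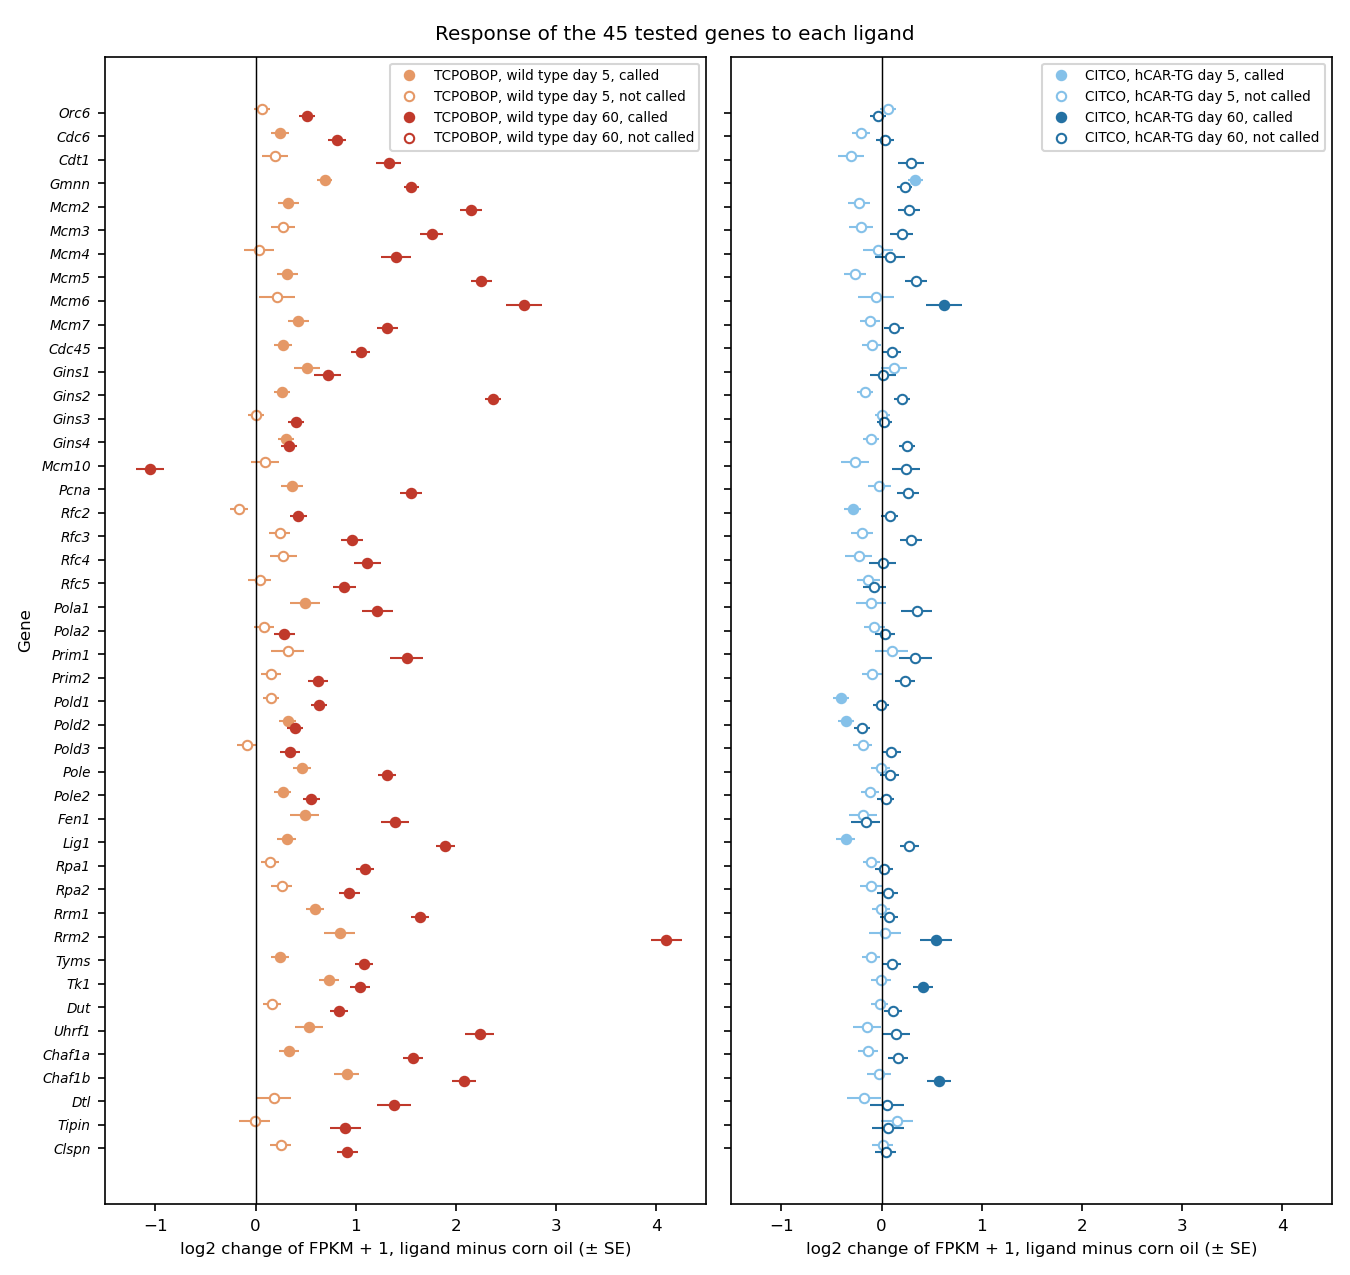
Log2 change of FPKM + 1 with TCPOBOP in wild type and CITCO in hCAR-TG livers for the 45 tested genes, with the standard error, at both ages, and filled points for called changes. With adult TCPOBOP 44 points lie right of 0 and are called, from 0.29 to 4.10, and with adult CITCO 4 are called.

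The response of hCAR-TG livers to CITCO was then compared with that of wild type livers to TCPOBOP. In adults 41 members had a lower and 1 a higher response, with a median difference of -0.98, beside 24.1% of all genes lower and 9.77% higher. Rrm2 (-3.56 ± 0.22, limma adjusted p = 3.17e-10), Gins2 (-2.16 ± 0.11), Uhrf1 (-2.10 ± 0.20), Mcm6 (-2.06 ± 0.25), Mcm5 (-1.92 ± 0.15) and Mcm2 (-1.88 ± 0.15) differed most, and Mcm10 was the 1 higher (1.29 ± 0.20, adjusted p = 3.32e-05). Not called were Gins4 (95% interval of the difference -0.32 to 0.16), Pola2 (-0.55 to 0.05) and Pold3 (-0.53 to 0.05). In newborn livers 26 members had a lower response and 0 a higher one (29 and 0 at an unadjusted p under 0.05), with a median of -0.39, beside 22.2% of all genes lower and 11.5% higher. Chaf1b (-0.93 ± 0.17, adjusted p = 0.00037), Rrm2 (-0.80 ± 0.22) and Tk1 (-0.74 ± 0.14) differed most there. Receptor and ligand cannot be told apart in these differences.

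Without a ligand no member was called different between the genotypes in adult liver. Of the 45 tested members 0 were higher and 0 lower in hCAR-TG corn oil livers by limma (1 and 2 at an unadjusted p under 0.05), with a median difference of 0.01, beside 3.05% of all genes higher and 1.85% lower. The 95% intervals of the members' differences lay between -0.66 (the lower bound for Mcm6) and 0.50 (the upper bound for Rfc3). Mcm10 was at 9.64, 5.88 and 5.70 FPKM in hCAR-TG corn oil replicates 1 to 3. Without replicate 1 its difference from wild type, -0.36 ± 0.14, became -0.58 and was called (limma adjusted p = 0.00679). Without that library the Mcm10 change with adult CITCO, 0.24 ± 0.14, became 0.46 and was called too (adjusted p = 0.0213). In newborn livers 10 members were higher in hCAR-TG and 0 lower (16 and 0 at an unadjusted p under 0.05), with a median of 0.16, beside 8.29% of all genes higher and 2.27% lower. Cdc6 was at 1.002, 1.29 and 1.42 FPKM in wild type and 2.49, 2.41 and 1.64 FPKM in hCAR-TG livers (0.50 ± 0.09, adjusted p = 0.000848), and Pold1 at 3.01, 2.94 and 3.43 FPKM and 4.63, 5.03 and 4.28 FPKM (0.45 ± 0.08, adjusted p = 0.000838). The ranges were apart in both. The others were Rrm2, Uhrf1, Mcm2, Cdt1, Mcm5, Cdc45, Chaf1a and Pole (0.29 to 0.54). The count was 19 without hCAR-TG replicate 3, between 2 and 4 without hCAR-TG replicate 1 or 2 or wild type replicate 1 or 2, and 0 with the compared libraries fitted alone.

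Markers of other cells differed between the same newborn libraries. Erythroid markers were higher in 12 of 14 tested, at 7577 to 9469 FPKM summed in hCAR-TG and 3124 to 4218 FPKM in wild type. Neutrophil markers were higher in 9 of 11 (1269.6 to 1600.3 against 352 to 906 FPKM) and progenitor and megakaryocyte markers in 3 of 6 tested (38.7 to 52.00 against 27.5 to 31.7 FPKM). Intestinal markers were higher in 3 of 6 tested (90.99 to 193 against 66.7 to 82.7 FPKM). Kupffer cell markers were at 781 to 1262 against 749 to 770.5 FPKM (2 of 12 higher and 1 lower) and cholangiocyte markers at 50.95 to 52.6 against 53.1 to 63.6 FPKM (0 of 6 tested lower and 1 higher). None of these markers was at 0 in all 3 libraries of either group. Their part in the members' difference was not tested.

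Other genes of the cell cycle, in lists chosen with earlier results of these data known, show the setting of the adult TCPOBOP response, in which 31.4% of all tested genes were called higher and 15.8% lower. Of 37 further genes of origins, forks and chromatin assembly, 20 rose and 1 fell (median 0.34), and those with the lowest adjusted p were the histone chaperone Asf1b (2.08 ± 0.11) and the topoisomerase Top2a (2.69 ± 0.16). Of 15 further deoxynucleotide and thymidylate genes 10 rose and 2 fell, among them the thymidylate kinase Dtymk, which rose (0.996 ± 0.08). Of 18 genes of de novo purine and pyrimidine synthesis 9 rose and 1 fell, the purine synthesis enzyme Paics (-0.78 ± 0.09). Of 18 E2F, RB and DREAM genes 11 rose and 2 fell, with E2f1 at 1.33 ± 0.11 and E2f2 at 1.84 ± 0.15. Of 17 cyclins, kinases and inhibitors of the G1 to S step 12 rose and 0 fell, with Ccnd1, a G1 cyclin, at 1.79 ± 0.15. Of 19 checkpoint and recombination genes 13 rose and 1 fell.

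All 24 mitosis genes rose in adult TCPOBOP livers, with a median of 2.36 against 1.09 for the 45 replication genes. Against newborn corn oil livers, treated adult livers had 10 of the 24 mitosis genes higher and 3 lower (median 0.12), and 3 of the 45 replication genes higher and 30 lower (median -0.29). That contrast between the lists is a description, with no test. In adult hCAR-TG livers given CITCO 3 mitosis genes rose, Cdc20 (0.87 ± 0.17), Cdk1 (0.37 ± 0.10) and Prc1 (0.38 ± 0.12), and the kinase inhibitor Cdkn1a fell (-1.29 ± 0.30, limma adjusted p = 0.00902). In newborn wild type livers given TCPOBOP 7 of the 24 mitosis genes and 5 of the 37 further replication genes rose, beside 24.6% of all genes.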

How the data were processed

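The authors deposited 1 table per library of FPKM per gene, with interval bounds, per the file headers. Libraries came from total RNA with a stranded mRNA kit, per the labels' protocols, and the genome build was mm10, per the submitters' processing notes. The aligner, the counting tool and the annotation are not given in the sources used here, nor is whether counting used strand. With FPKM alone the depth behind each value is unknown.

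Repeated symbols were summed, and 5 genes with a failed estimate were left out. The 13 comparisons were fitted with limma 3.58.1 in R 4.3.3 (1 model of 8 groups, 16 residual degrees of freedom, trend and robust variance) on log2(FPKM + 1), over genes at 1 FPKM or more in at least 3 libraries. Values after ± are standard errors, and n is 3 per group. Tables were handled with pandas 2.3.3 in Python 3.11.15. The fit was tested on simulated data. The members and the other lists were chosen with earlier results of these data known. Named in each comparison were up to 8 called members with the largest change, in each role the called member with the lowest adjusted p and the member with the smallest change, a fixed set (Mcm2, Mcm5, Cdc6, Cdt1, Gmnn, Cdc45, Pcna, Rrm1, Rrm2, Tyms, Tk1, Lig1, Uhrf1 and Dtl), up to 3 called genes from each other list (some are not reported here), and members in counts of 5 or fewer. Clspn, Dut, Rpa1, Rpa2, Fen1 and the GINS and polymerase subunits named beside them are given to account for every role.

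Alternatives were a pseudocount of 0.1, rescaling by the median of ratios, testing all genes or only those reaching 5 FPKM, the replicate number as a block, the compared libraries alone, the number closing the read file name as a factor, and leaving out each library. The read file number differs only within the adult TCPOBOP, newborn hCAR-TG corn oil and adult CITCO groups. Its effect therefore hangs on single libraries. It could not be fitted for newborn TCPOBOP, newborn genotypes or age in hCAR-TG livers, where no group of mixed numbers links the groups compared. The same held for the TCPOBOP difference between ages and the newborn difference between ligands. For age in wild type corn oil livers and for adult genotypes the groups share no number either. Those fits run through the adult TCPOBOP group and, for age, the adult CITCO group as well. Orc1 was left out of the percentages of the newborn level because it did not pass the filter and was not tested. By the coordinates of the deposited tables, the printed Mcm6 promoter ends short of the gene's start and the printed Uhrf1 promoter lies inside the gene.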

Additional observations from a re-analysis of the deposited data

Results flagged for a closer look

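The tests of a difference between responses singled out these results. The TCPOBOP response differed between adult and newborn wild type livers for 39 of 45 tested members by limma, most for Rrm2 (3.26 ± 0.22), and in the other direction for Mcm10 (-1.15 ± 0.20). The CITCO response differed between the ages for 8 members, and of these most for Lig1 (0.64 ± 0.13). Between CITCO in hCAR-TG and TCPOBOP in wild type livers the response differed for 26 members in the newborn, most for Chaf1b (-0.93 ± 0.17). In the adult it differed for 42 members, most for Rrm2 (-3.56 ± 0.22), and in the other direction for Mcm10 (1.29 ± 0.20).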

How the results depend on the processing

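In the alternatives tried, the counts of members called with adult TCPOBOP, with age in either genotype, for the TCPOBOP difference between ages and for the adult and newborn differences between ligands stayed within 1.5 times. Of these, age in hCAR-TG livers, the TCPOBOP difference and the newborn ligand difference could not be fitted with the read file number. Elsewhere the counts moved, and the cause was not tested. For newborn TCPOBOP, leaving out 1 library gave 12 to 25 higher and 0 to 1 lower, and rescaling gave 1 lower. For newborn CITCO, the read file number as a factor gave 11 higher and 2 lower, the compared libraries alone 0 and 2, and leaving out 1 library 2 to 14 lower. For adult CITCO the count higher was 8 after rescaling, 12 with a pseudocount of 0.1, 2 with no filter, 7 with a filter at 5 FPKM, and 2 to 4 without 1 library. The read file number leaves CITCO replicate 1 alone there, with a members' median of 0.14. For the CITCO difference between ages the count higher was 4 with no filter, 5 with the replicate number as a block, and 2 to 19 without 1 library. With the read file number it rests on the same single libraries, and the members' median was 0.01. For newborn genotypes the count higher was 5 after rescaling, 4 with a pseudocount of 0.1, 5 with a filter at 5 FPKM, 0 with the compared libraries alone, and 2 to 19 without 1 library. For adult genotypes it was 1 higher with the read file number and 0 to 1 lower without 1 library. For treated adults against untreated newborns it was 8 after rescaling and 5 with the compared libraries alone. Pold2 reversed with age in hCAR-TG livers, to 0.036 after rescaling. With adult TCPOBOP, 564 of 570 values of single members under an alternative kept their direction and call, and 6 lost the call.

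Same-numbered replicates did not deviate together in every pair (correlations from -0.14 to 0.26), which cannot settle whether the numbers pair samples. In newborn wild type livers acinar marker sums of replicates 1 to 3 were 39.4, 295 and 14.3 FPKM with corn oil. With TCPOBOP they were 40.6, 412 and 22.7 FPKM. In newborn hCAR-TG livers these sums were 32.6, 8.78 and 12.7 FPKM with corn oil and 376, 6.49 and 8.62 FPKM with CITCO. The replicate block moved no other count by over 1.5 times. Rescaling changed the share of higher among all called genes with TCPOBOP from 68.6% to 57.6% in the newborn and from 66.5% to 52.9% in the adult, for the CITCO difference between ages from 53.8% to 66.3%, for the adult difference between ligands from 28.9% to 46.3%, for newborn genotypes from 78.5% to 63.7%, with age from 35.99% to 54.6% in wild type and from 33.9% to 54.1% in hCAR-TG livers, and for treated adults against untreated newborns from 44.2% to 55.7%. Depth is unknown, and with 3 libraries a group and members under 1 FPKM in adult livers, small changes there are poorly resolved.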
